A study of Mus musculus with 2 samples.

Results

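The genes described here are 10 genes of the G1 switch of the cell cycle: the D cyclin genes Ccnd1, Ccnd2 and Ccnd3, the kinase genes Cdk4 and Cdk6, and the inhibitor genes Cdkn1a, Cdkn1b, Cdkn1c, Cdkn2c and Cdkn2d. They were chosen by symbol, and all 10 were found among the 20373 genes listed for each of 2 libraries. RNA was sequenced from neural progenitor cells (NPCs) and from neurons of mouse cortex at embryonic day 15.5, with 1 library of each. The embryos came from a cross of heterozygous Nestin-GFP with homozygous DCX-mRFP mice, and every embryo used carried both reporters. Nestin sequences drive green protein in progenitors and doublecortin sequences drive red protein in young neurons. Sorting took green cells as NPCs and doubly coloured cells as neurons, so both populations are defined by reporter protein and not by a measured cell cycle state. The number of embryos pooled is not stated in the labels.

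D-type cyclins are made in response to growth signals and activate the kinases encoded by Cdk4 and Cdk6. The active pair phosphorylates the retinoblastoma protein, which releases E2F factors and lets a cell pass from G1 into S phase. Inhibitors of the Ink4 family, here Cdkn2c and Cdkn2d, bind the kinases themselves, while those of the Cip/Kip family, Cdkn1a (p21), Cdkn1b (p27) and Cdkn1c (p57), bind cyclin-kinase complexes. In the developing cortex Ccnd2 is known for its role in dividing progenitors, and Cdkn1b and Cdkn1c for cell cycle exit and for migration of young neurons.

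The library labelled NPC held 26346226 reads on listed genes and the library labelled neuron 23312054. All 8 radial glia markers examined and all 6 intermediate progenitor markers were higher in NPCs, and all 8 neuronal markers were higher in neurons, in the direction of the labels. The groups are those of the labels. The column headers begin with D in the table labelled NPC and with R in the table labelled neuron. The labels do not explain these letters, and if they stood for the colours of the sorted cells they would not match the sort described. Every NPC and neuron value here rests on the labels. Among these markers, the NPC level of Pax6 was 137.5 counts per 1000000 (CPM) and its neuron level 40.7. Neurog1 was at 25.4 and 6.01, and Gadd45g at 81.9 and 24.7. Of the neuronal markers, Nefl was at 2.52 and 16.7 and Stmn2 at 191.5 and 541.9. The separation was partial. Dcx, the source of the red reporter's promoter, stood at 2522 CPM in NPCs and 3294 in neurons, and the proliferation gene Mki67 at 829.5 and 241.1. Markers of other cells differed as well. Summed levels of 8 pericyte markers were 289.5 CPM in NPCs and 24.98 in neurons, those of 8 endothelial markers 21.8 and 3.34, those of 6 oligodendrocyte lineage markers 76.9 and 2.86, and those of 6 interneuron markers 296.7 and 212.8. Summed levels of 8 microglia markers were 31.99 and 137.8, and those of 5 Cajal-Retzius markers 99.2 and 458.9. No marker of these lists was at 0 reads in either library. Of 4 choroid plexus genes, 3 were at 0 in neurons and none reached 1 CPM. The 4 erythroid genes summed to 90.5 and 83.75. The 2 genes of each list with the largest log2 ratio are given next. For pericytes these were Pdgfrb (54.0 and 2.33 CPM) and Abcc9 (61.5 and 2.81), while Acta2, singled out once its value was known, was the 1 pericyte marker not lower in neurons (1.89 and 2.11). For endothelium they were Kdr (4.82 and 0.439) and Cdh5 (3.08 and 0.2199), and for the oligodendrocyte lineage Cspg4 (842 and 23 reads) and Pdgfra (682 and 16 reads). Among interneuron genes they were Dlx2 (32.1 and 17.4) and Dlx5 (11.97 and 7.33). Higher in neurons were the microglia genes Fcrls (4.04 and 20.7) and Csf1r (10.9 and 46.8) and the Cajal-Retzius genes Trp73 (2.04 and 16.55) and Reln (95.8 and 434.2). The erythroid genes Hbb-b1 (28.2 and 25.4) and Alas2 (1.52 and 1.36) were near equality. The part that any of these cells had in the results was not tested.

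Of the 10 genes, 4 exceeded their neuron level by 2-fold or more in NPCs: Ccnd1, Ccnd2, Cdk6 and Cdkn2c. None was at least 2-fold higher in neurons. Calls compare the 2 levels after 1 CPM is added to each. Among 12693 genes with at least 1 CPM in a library, which include all 10, 6.73% passed 2-fold toward NPCs and 3.85% toward neurons. At a threshold of 1.5-fold the count was again 4 in NPCs and 0 in neurons, against 13.1% and 10.6% of all genes. Taken as neuron over NPC, the log2 ratio had a median of −0.34 for the 10 and of −0.0049 for all genes. Of the 10, 8 were lower in neurons and 2, Cdkn1a and Cdkn2d, were higher. With 1 library per group there is no replicate error and no test. The intervals beside folds are exact 95% intervals that cover counting error only. In sorted populations measured in bulk, fewer cells of a type and less RNA per cell cannot be told apart.

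**Figure D1:**
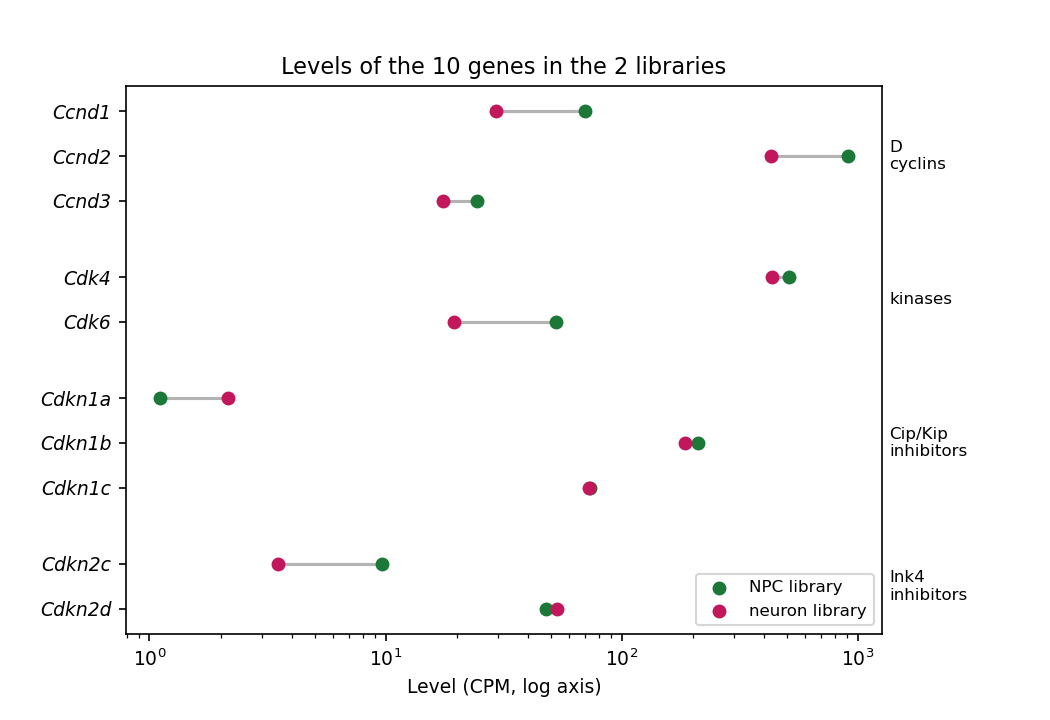
Level of each of the 10 genes (rows, grouped by role) in CPM on a log axis, with 1 point for the NPC library and 1 for the neuron library. The longest gaps belong to Ccnd1, Ccnd2, Cdk6 and Cdkn2c, each lower in neurons, while the points of Cdkn1c lie on each other.

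The kinase genes are shown by sequence first. The 250 bases before the RefSeq start of each (build GRCm38.p6) are given 5′ to 3′ on the gene's strand. Cdk4 lies at chr10:127063285-127063534 on the plus strand and Cdk6 at chr5:3343643-3343892 on the plus strand. Capitals mark CACGTG, the E-box that Myc family factors can bind, which reads the same on both strands.
Cdk4: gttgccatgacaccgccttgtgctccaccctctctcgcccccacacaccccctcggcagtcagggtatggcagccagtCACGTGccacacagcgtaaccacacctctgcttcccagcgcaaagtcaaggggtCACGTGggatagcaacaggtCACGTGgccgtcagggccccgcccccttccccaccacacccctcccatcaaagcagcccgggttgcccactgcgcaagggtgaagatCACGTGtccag
Cdk6: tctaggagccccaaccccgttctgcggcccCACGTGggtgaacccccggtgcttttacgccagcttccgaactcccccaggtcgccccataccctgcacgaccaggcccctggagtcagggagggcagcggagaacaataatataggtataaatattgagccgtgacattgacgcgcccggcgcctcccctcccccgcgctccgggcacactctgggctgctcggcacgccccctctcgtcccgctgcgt
The Cdk4 window held 4 E-boxes and the Cdk6 window 1. Of 32817 RefSeq starts, 6.02% had at least 1 E-box in a window of this length, and 7 starts (0.0213%) had at least 4, a number looked up after the Cdk4 window was seen. These are matches of letters and not measured binding, and their part in the levels of Cdk4 and Cdk6 was not tested.

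Cdk6 was 2.70-fold higher in NPCs, and Cdk4 only 1.17-fold. Cdk4 was at 510.3 CPM in NPCs (13764 reads) and 435.2 in neurons (9914 reads), a fold of 1.17 (1.14 to 1.203). Cdk6 was at 52.7 CPM (1422 reads) and 19.5 (445 reads), a fold of 2.70 (2.42 to 3.01). The neuron library thus held 85.3% of the NPC level of Cdk4 and 37.1% of that of Cdk6. The balance within the pair needs no scaling between libraries and does not depend on gene length. There were 9.68 Cdk4 reads for each Cdk6 read in NPCs and 22.3 in neurons, a 2.30-fold shift toward Cdk4 (2.06 to 2.57). All 8 endothelial markers and 7 of 8 pericyte markers were lower in neurons, as Cdk6 was, and their part was not tested. Exons of Cdk4 overlap those of Tspan31 on the other strand, itself at 74.3 and 66.5 CPM. Whether strand was used in counting is not given in the sources used here. Cdk6 shares stretches with the gene models Gm16505, Gm21321, Gm49080 and Gm49103. The longest was 388 bases of Gm16505 at 92.27% identity, within a Cdk6 transcript of 11525 bases, and reads from such stretches are less certain.

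All 3 D cyclin genes were lower in neurons. Ccnd2 was at 905.7 CPM in NPCs (24430 reads) and 429.3 in neurons (9781 reads), 2.11-fold higher in NPCs (2.06 to 2.16). Ccnd1 was at 70.3 CPM (1895 reads) and 29.3 (668 reads), 2.40-fold higher in NPCs (2.19 to 2.62). Both cyclins were thus present in neurons at slightly under 50% of their NPC level, Ccnd2 at 47.4% and Ccnd1 at 41.7%. Ccnd3 was at 24.4 CPM (658 reads) and 17.6 (400 reads), 1.39-fold higher in NPCs (1.22 to 1.58). It kept 72.0% of the NPC level and did not reach 1.5-fold.

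Ccnd2 held most D cyclin reads in both libraries, while the smaller shares of Ccnd1 and Ccnd3 shifted. Ccnd2 took 90.5% of D cyclin reads in NPCs (90.2 to 90.9) and 90.2% in neurons (89.6 to 90.7), intervals that overlap. The share of Ccnd1 was 7.02% in NPCs (6.72 to 7.33) and 6.16% in neurons (5.71 to 6.63). That of Ccnd3 was 2.44% in NPCs (2.26 to 2.63) and 3.69% in neurons (3.34 to 4.06). For neither gene do the intervals overlap. Read shares within a library are weighted by transcript length, so the comparison is between libraries. Per Ccnd2 read, Ccnd3 was 1.52-fold more frequent in neurons (1.33 to 1.73), and per Ccnd1 read 1.72-fold (1.48 to 2.01). Ccnd2 per Ccnd1 shifted by 1.14-fold (1.04 to 1.25), the smallest shift among the 3 pairs of D cyclins. Ccnd1 overlaps Oraov1 on the other strand (25.99 and 25.4 CPM) and Ccnd3 overlaps Bysl (39.85 and 42.8). Both of these neighbours lay near equality between the libraries. Ccnd3 also has a processed pseudogene, Ccnd3-ps, with 96.25% identity over 881 bases, so its reads are less certain. Microglia can also make Ccnd1, and their markers were higher in neurons. Endothelial and radial glia markers were lower in neurons, as Ccnd1 was. The part of these cells in the Ccnd1 level was not tested.

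**Figure D2:**
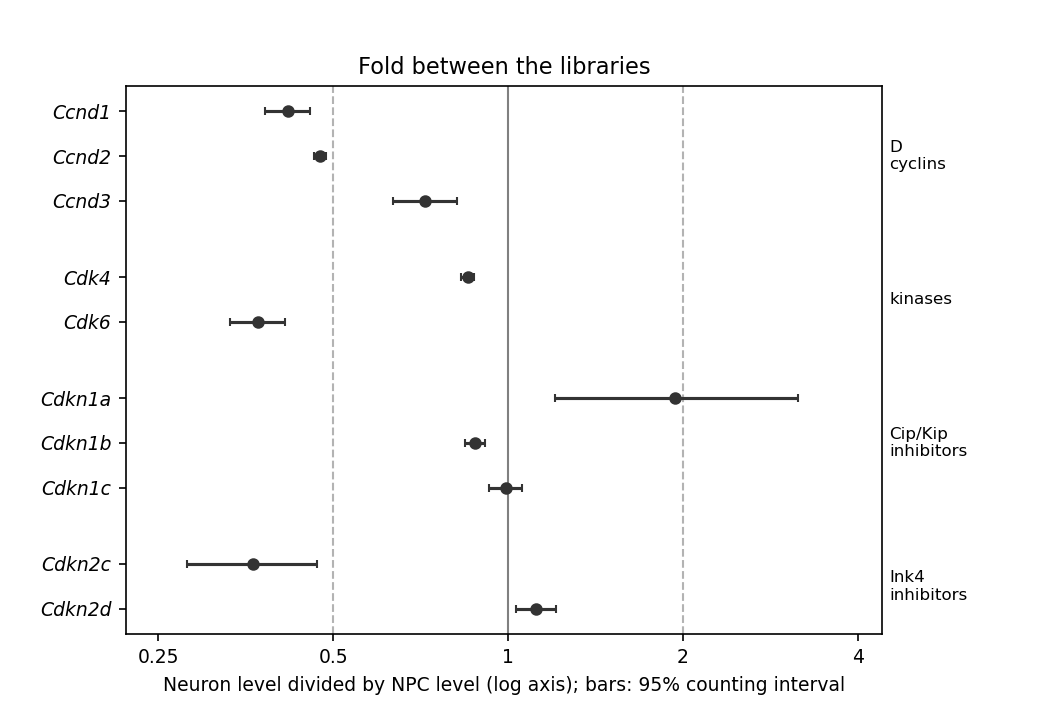
Neuron level divided by NPC level for each gene on a log axis, with bars for the 95% counting interval, a solid line at equality and dashed lines at 2-fold. Ccnd1, Ccnd2, Cdk6 and Cdkn2c lie left of the lower dashed line with their intervals, and only the interval of Cdkn1c includes equality.

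The 2 Ink4 genes went apart. Cdkn2c (p18) was at 9.64 CPM in NPCs (260 reads) and 3.51 in neurons (80 reads), 2.74-fold higher in NPCs (2.13 to 3.57). Cdkn2d (p19) was at 47.7 CPM (1287 reads) and 53.2 (1212 reads), 1.12-fold higher in neurons (1.03 to 1.21). At 36.4%, Cdkn2c had the lowest neuron level relative to NPCs of the 10 genes, with an interval that overlaps that of Cdk6. Its share of Ink4 reads was 16.8% in NPCs (15.0 to 18.8) and 6.19% in neurons (4.94 to 7.65). The ratio of Cdkn2d to Cdkn2c reads was 4.95 in NPCs and 15.2 in neurons, a 3.06-fold shift (2.34 to 4.03), and this was the largest of the 8 pairs formed within the 4 families. The remaining Ink4 genes were nearly silent. Cdkn2a had 1 read in NPCs and 0 in neurons, and Cdkn2b had 0 in both, so that levels under 3 reads (0.111 CPM in NPCs and 0.132 in neurons) were not detectable. Cdkn3, which encodes a phosphatase of CDKs and not an Ink4 protein, had 3.78 CPM in NPCs and 0.834 in neurons, a 4.53-fold difference.

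Of the Cip/Kip genes, Cdkn1b and Cdkn1c differed little between the libraries. Cdkn1b was at 211.0 CPM in NPCs (5691 reads) and 184.9 in neurons (4212 reads), 1.14-fold higher in NPCs (1.10 to 1.19). Cdkn1c was at 73.2 CPM (1974 reads) and 72.5 (1651 reads). Its neuron level was 99.0% of that in NPCs (92.7 to 105.8), so that no difference was detectable beyond counting error. Both inhibitors were therefore as readily measured in the progenitor library as in the neuron library. Per Cdkn1b read, Cdkn1c was 1.13-fold more frequent in neurons (1.05 to 1.22). Cdkn1c is an imprinted gene that pericytes and endothelial cells also make. In neurons 7 of 8 pericyte markers, all but Acta2, and all 8 endothelial markers were lower, and their part in the Cdkn1c level was not tested. Cdkn1c overlaps an antisense gene model, Gm44732, as Ccnd2, Cdk6 and Cdkn1a overlap models on the other strand, and none of these was among the listed symbols.

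Cdkn1a, the p53 target among the inhibitors, had the lowest level of the 10. It had 30 reads in NPCs (1.11 CPM) and 49 in neurons (2.15 CPM), 1.93-fold higher in neurons (1.203 to 3.16). With 1 CPM added to both values the log2 ratio was 0.58, just short of 1.5-fold. Per Cdkn1b read, Cdkn1a was 2.21-fold more frequent in neurons (1.37 to 3.61), and per Cdkn1c read 1.95-fold (1.21 to 3.20). The window before the upstream of its 2 RefSeq starts is shown because it holds letters that match the half-site p53 can bind. It lies at chr17:29090729-29090978 (GRCm38.p6, plus strand), and capitals mark matches to the p53 half-site.
Cdkn1a: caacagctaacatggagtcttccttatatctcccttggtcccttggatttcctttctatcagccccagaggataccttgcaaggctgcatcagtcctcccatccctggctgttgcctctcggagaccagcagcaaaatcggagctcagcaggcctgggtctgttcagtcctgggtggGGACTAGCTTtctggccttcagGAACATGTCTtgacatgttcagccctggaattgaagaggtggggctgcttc
A half-site stood in 7.12% of all 32817 windows. The downstream start of Cdkn1a had none, and among the other members with a window Cdkn2d had 1. Other p53 targets did not share a direction. Of 10 such genes, 2 passed 2-fold toward NPCs: Btg2 (2.77-fold), an antiproliferative gene of neurogenic progenitors, and Gtse1 (2.45-fold), made in S and G2 phase. One passed it toward neurons, Bbc3, which encodes the apoptosis factor Puma (4.82 and 11.8 CPM, 2.44-fold, 1.97 to 3.03). Bbc3 was singled out once its value was known. The median log2 ratio of the 10 was −0.11. Over all genes 6.73% passed 2-fold toward NPCs and 3.85% toward neurons. Microglia markers were higher in neurons in the same direction as Cdkn1a, and their part was not tested.

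**Figure D3:**
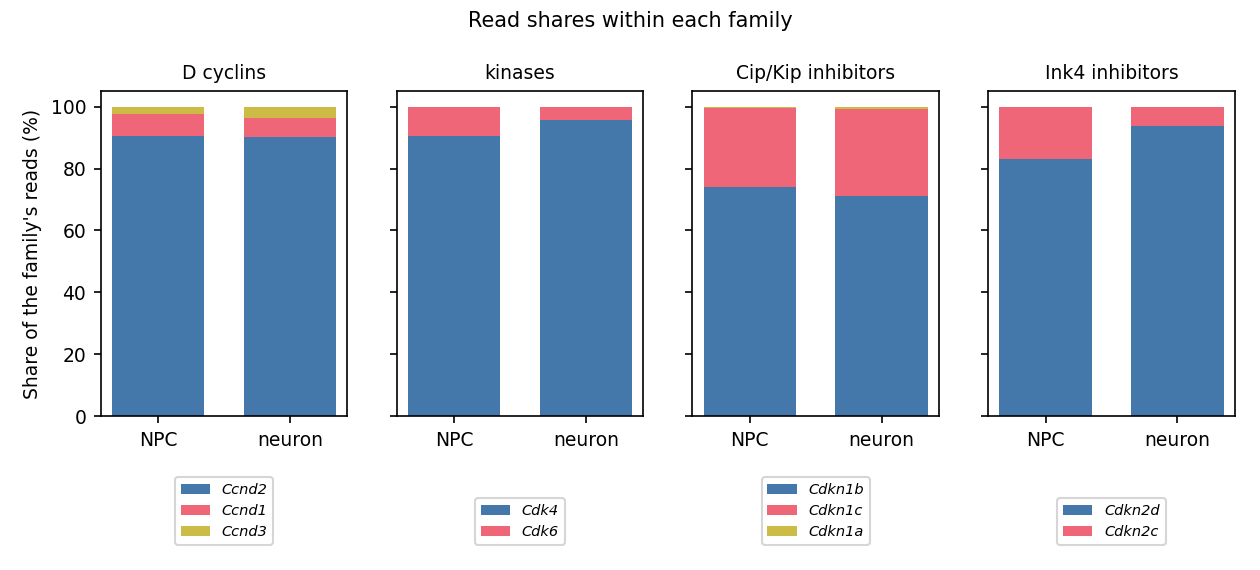
Share of each family's reads taken by each member, as stacked bars that sum to 100% for the NPC and the neuron library. The largest shares, of Ccnd2 among the D cyclins and of Cdkn1b among Cip/Kip, differ little between the libraries. Cdk6 and Cdkn2c take smaller shares in neurons.

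Levels can be compared between genes only per length, for which the longest coding transcript in GENCODE M21 was used, since the labels do not state the authors' gene models. On this scale, in CPM per kilobase, Cdk4 was highest in both libraries (248.6 in NPCs and 212.0 in neurons), followed by Ccnd2 (143.1 and 67.8), Cdkn1b (46.35 and 40.6), Cdkn1c (38.5 and 38.1) and Cdkn2d (33.5 and 37.4). The order, and not only the top rank, depends on the length chosen, which the counting intervals do not cover. With the shortest coding transcripts Ccnd2 was above Cdk4 in NPCs (921.4 and 714.7), while Cdk4 stayed above Ccnd2 in neurons (609.5 and 436.7). On those lengths Ccnd3 (26.2) and Cdk6 (21.3) stood above Ccnd1 (18.8) in NPCs. In neurons Cdkn2d (42.1) then stood above Cdkn1c (38.4). With the longest transcripts, below these 5 genes in NPCs stood Ccnd1 (18.8), Ccnd3 (11.5), Cdk6 (4.57), Cdkn2c (3.90) and Cdkn1a (0.535). In neurons Ccnd3 (8.31) and Ccnd1 (7.84) changed places, but their counting intervals overlap there. So do those of Cdkn1b and Cdkn1c and of Cdkn1c and Cdkn2d in neurons, of Cdk6 (1.70) and Cdkn2c (1.42), and of Cdkn2c and Cdkn1a (1.03). In NPCs Cdk6 and Cdkn2c are the only neighbours in the order whose intervals overlap.

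Summed by role on the same scale per kilobase, the D cyclins had 173.4 in NPCs and 83.97 in neurons, or 0.484 of the NPC value. The kinases had 253.1 and 213.7 (0.844), the Cip/Kip inhibitors 85.4 and 79.8 (0.934) and the Ink4 inhibitors 37.4 and 38.8 (1.04). The lower total of the D cyclins is mainly that of Ccnd2, and the kinase total follows Cdk4. D cyclin transcripts summed to 2.03 times the Cip/Kip transcripts in NPCs and to 1.05 times in neurons. These quotients depend on the lengths used. With the shortest coding transcripts they were 6.04 and 3.18, again lower in neurons.

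The members that were lower in neurons were set beside genes that act later in the cycle. Of 10 later cyclins, kinases and activating phosphatases, 7 passed 2-fold toward NPCs and 0 toward neurons, and the median log2 ratio was −1.27. Of all genes, 6.73% and 3.85% did so. Ccnb1 and Cdc25c, which drive entry into mitosis, were 2.88-fold and 3.09-fold higher in NPCs. Ccna2, Ccnb2, Cdk1 and Cdk2 lay between 2.50-fold and 2.74-fold. Ccne1, the cyclin that acts just after the D cyclins, was 2.22-fold higher, and Ccne2, Cdc25b and Cdc25a were 1.74-fold, 1.89-fold and 1.25-fold higher. Among 12 S phase genes the neuron level was 26.0% to 64.7% of that in NPCs, with a median of 40.9%, and among 10 genes of G2 and mitosis 29.1% to 40.5%, with a median of 33.9%. The S phase genes Cdc6, which loads the replicative helicase, and Mcm3, a subunit of it, were 3.85-fold and 3.35-fold higher in NPCs. Of the mitotic genes, Mki67 and Hmmr, a spindle protein gene, were 3.44-fold and 3.42-fold higher. Ccnd1, at 41.7%, and Ccnd2, at 47.4%, lay above the whole range of the mitotic genes and within that of the S phase genes. The counting interval of Ccnd1 (38.2% to 45.6%) reaches into the mitotic range, so its place above that range is not firm. Cdk6 and Cdkn2c lay within both ranges. The intervals of Cdk6 (33.2% to 41.2%) and Cdkn2c (28.0% to 47.0%) extend past the mitotic range, so their place within it is not firm either. Cdk4, Cdkn1b, Cdkn1c and Cdkn2d lay above both, as did Cdkn1a and Ccnd3, though the interval of Ccnd3 (63.4% to 81.6%) reaches into the S phase range.

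The retinoblastoma and E2F genes, on which the D cyclin kinases act, had a median log2 ratio of −0.61. All 13 were lower in neurons, 3 of them by 2-fold or more, against 6.73% of all genes. E2f8 and E2f2 were 3.21-fold and 3.13-fold higher in NPCs. The pocket protein genes, singled out once their values were known, were unequal too. Rbl1 (p107) had 40.2 CPM in NPCs and 16.7 in neurons, or 0.416 of the NPC level (0.369 to 0.468), while Rb1 was at 134.8 and 129.1 and Rbl2 (p130) at 44.97 and 44.90, with counting intervals that include equality. Of 8 genes of the DREAM and MuvB complexes, which repress or activate cell cycle genes, 2 passed 2-fold toward NPCs, against 6.73% of all genes. These were Foxm1 and Mybl2, 2.90-fold and 2.65-fold higher in NPCs. The other 6 were within 1.5-fold, a threshold passed by 13.1% of all genes toward NPCs and 10.6% toward neurons.

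**Figure D4:**
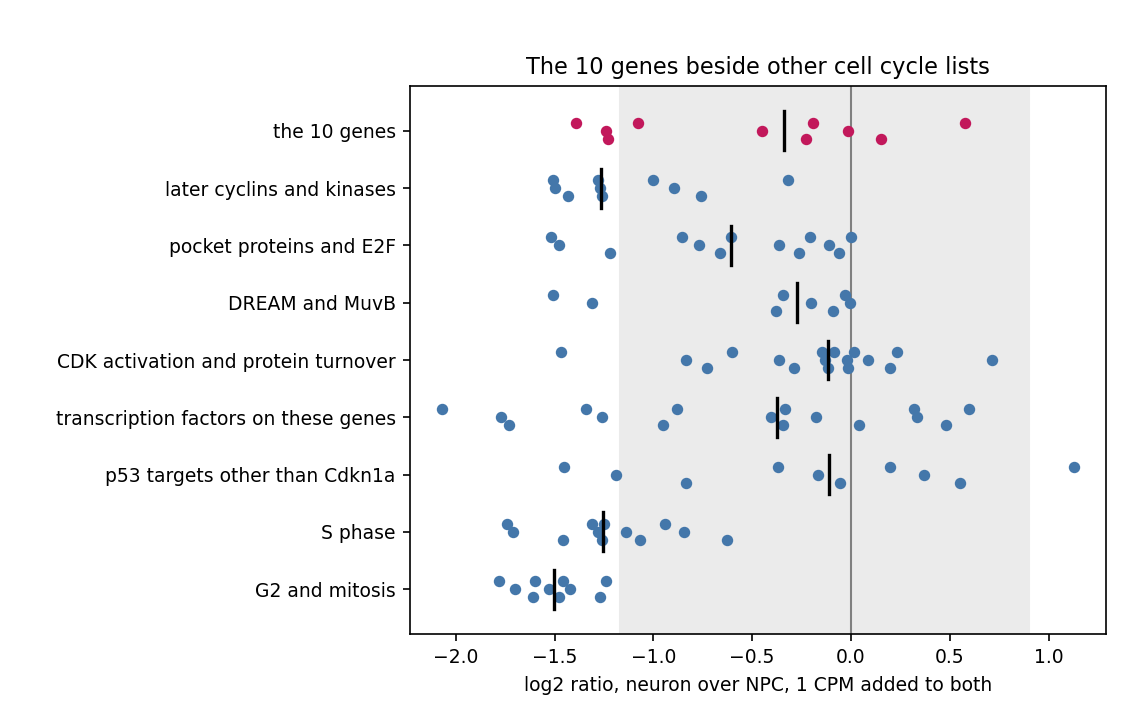
Log2 ratio of neuron to NPC with 1 CPM added to both, 1 point per gene, for the 10 genes and for 8 other lists, with a black bar at each median and the middle 90% of all genes in grey. The 10 genes spread from −1.39 to 0.58, while every gene of G2 and mitosis is at 40.5% of its NPC level or less.

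Genes that activate CDKs or degrade the cyclins and inhibitors were mostly near equality. Of 17, 1 passed 2-fold toward NPCs and 0 toward neurons, against 6.73% and 3.85% of all genes, and the median log2 ratio was −0.11. That gene was Dtl, the adaptor that directs destruction of the Cdkn1a protein in S phase, at 46.2 and 16.0 CPM (2.89-fold). Cks1b, which helps Skp2 recognise the Cdkn1b protein, was at 25.5 and 13.8 CPM (1.84-fold toward NPCs). Skp2 itself had 63.2 and 41.3 CPM (1.53-fold). Fbxo31, an F-box protein reported to act on cyclin D1, was 1.66-fold higher in neurons (1.52 to 1.80). Both were singled out once their values were known. Of 16 transcription factors and chromatin genes known to act on the D cyclin and inhibitor genes, 5 passed 2-fold toward NPCs and 0 toward neurons. The shares over all genes were again 6.73% and 3.85%. Hes1, a repressor that can act on Cdkn1b and Cdkn1c, was at 10.8 and 1.80 CPM (5.99-fold), and Gli3, of the hedgehog pathway, at 187.4 and 54.3 (3.45-fold).

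By distance on the plane of both log2 levels, over 2 libraries, the genes outside these lists nearest to the members were as follows. Nearest to Cdk6 was Mms22l (52.1 and 19.2 CPM) and then Nusap1 (54.2 and 19.1). Nearest to Ccnd1 were Acss1 (73.4 and 30.2) and Pole (64.1 and 28.9), and nearest to Cdkn2c were Loxl2 (9.82 and 3.60) and Iqck (9.45 and 3.69). Ccnd2 had no close neighbour, with Epha4 (730.9 and 403.9 CPM) at a distance of 0.32 and H1f0 (689.3 and 430.2) at 0.39. For Cdk4 the nearest were Trrap and Kpnb1, for Ccnd3 Lats2 and Pole3, for Cdkn1b Rcbtb1 and Hif1a, for Cdkn1c Elk1 and Cstf3, and for Cdkn2d Ostc and Metap1. Among the genes near Cdkn1a was Krt1 (1.11 and 2.24 CPM). With 2 libraries such likeness holds for any gene of similar level and ratio.

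Letters of other promoter motifs were counted in the same windows for the 7 members with a RefSeq start in the table, with 10 starts in all. Ccnd1, Ccnd2 and Cdkn1c had no start there, and Ccnd3, Cdkn1a and Cdkn2c had 2 each. The E2F motif was searched as TTTCCCGC, TTTCGCGC, TTTGCCGC and TTTGGCGC on both strands and stood in 0 of the 10 windows, against 1.86% of all starts. The GC box GGGCGG stood in 7 of the 10, against 32.7% of all starts, and the CCAAT box in 3, against 33.8%. The windows of the members held 42.8% to 77.2% G and C, and all but the lowest exceeded the median of all starts, 52.4%. The GC box count is therefore not set against windows of like G and C content. Of the 2 starts of Cdkn2c, the one rich in G and C (77.2%) held 3 GC boxes, and the other (42.8%) held none. Cdkn2d had 3 GC boxes as well.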

How the data were processed

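Each library's file lists 20373 genes by symbol with 1 value. The deposited values are a signal, and edgeR, SAMtools 0.1.18, TopHat 1.2.0, CASAVA 1.9 and build mm9 stand in the submitters' processing notes with no role or order, so the authors' counting and annotation are not known here. The column headers begin with the letters D (NPC) and R (neuron), which the labels do not explain. Groups were taken from the labels. Values were whole multiples of 1 step per library (0.952727 and 1.12797). After division by that step, 100% of NPC values and 99.9656% of neuron values lay within 0.05 of a whole read. Both libraries were divided by 25698104, the mean of their sums, and multiplied by 1000000 to give CPM. This keeps the authors' scaling. Calls use log2 ratios with 1 CPM added, for genes with at least 1 CPM in a library. No test was run, because there is 1 library per group and no residual degrees of freedom, so no count test was run on the recovered reads either.

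Folds in the text are ratios of CPM without the added value, with exact Clopper-Pearson 95% intervals of the share of a gene's reads from 1 library. Ratios of ratios have conditional exact intervals (SciPy 1.17.1). These reads carry no molecular identifiers, so they are not independent molecules. Scaling alternatives used edgeR 4.0.16. The calculations were tested on simulated data. Lengths came from GENCODE M21 (GRCm38), promoters from RefSeq (GRCm38.p6), and near-identical transcripts from a BLAST search. Motifs were searched in 250 bases before each start. The members and the 20 gene lists (9 pathway, 11 cell type) were chosen with earlier results of these data known. Named are all members, the later cyclins and kinases, the other CDK inhibitors, the 2 genes of each list with the largest log2 ratio and the 2 nearest genes of each member, of which 1 is not reported here. Other genes are marked as singled out once their values were known, and markers of the sort and overlapping genes are given for context. For 1 list gene an older symbol was used.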

Additional observations from a re-analysis of the deposited data

How the results depend on the processing

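The direction of all 10 genes was kept under scaling by total reads, TMM and upper quartile and with 0.5 or 5 CPM added before the logarithm. The small excess of Cdkn2d in neurons shrank with total reads, to a log2 ratio of 0.088 against 0.154. The intervals beside folds hold for the deposited scaling only, so its interval above equality depends on that scaling. Scaling by total reads shifted the median log2 ratio of all genes by −0.064, and the other scalings by less. The 4 genes past 2-fold toward NPCs became 3 with 5 CPM added and 3 with a filter at 10 CPM, where Cdkn2c no longer reached the threshold or the filter. With 5 CPM added its log2 ratio was −0.78. With 0.5 CPM added, 1 member, Cdkn1a, was at least 1.5-fold higher in neurons, against 0. With 5 CPM added, 0 pathway genes passed 2-fold toward neurons, against 1. Over all genes, 5 CPM added gave 399 genes past 2-fold toward NPCs and 238 toward neurons, against 854 and 489, and 1050 and 890 at 1.5-fold, against 1659 and 1346. A filter at 10 CPM gave 548 and 1016 in NPCs at the 2 thresholds. Taken over all 10 members, Ccnd2 held 47.5% of reads in NPCs and 34.4% in neurons. The summed D cyclin level per kilobase over that of Cip/Kip was 1.94 and 1.003 with the union of exons and 6.04 and 3.18 with the shortest transcripts, lengths chosen after seeing the data. No paired analysis was possible because each group has 1 library. Depth limits Cdkn1a most, with 30 and 49 reads.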

Other observations

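Cyclin, CDK and related genes outside the 10 were taken by symbol. Taken were symbols with Ccn followed by a letter, Cdk or Cdkl followed by a digit, and those that begin with Cdkn. Of 59, 52 reached 1 CPM in a library. Of these, 8 passed 2-fold toward NPCs and 0 toward neurons, against 6.73% and 3.85% of all genes, and the median log2 ratio was −0.051. The 8 are Ccna2, Ccnb1, Ccnb2, Ccne1, Cdk1, Cdk2 and Cdkn3, described above, and Ccnf (36.1 and 15.8 CPM, 2.29-fold). At 1.5-fold toward neurons there were 4 of the 52, against 10.6% of all genes, and these were named after their values were seen. They are the Cdk5 activator genes Cdk5r1 (348.0 and 652.5 CPM, 1.87-fold) and Cdk5r2 (6.08 and 12.2, 2.00-fold, 1.64 to 2.44), and the CDK-like genes Cdkl1 (5 and 31 reads, 7.35-fold, 2.83 to 24.2) and Cdkl2 (2.19 and 4.79, 2.19-fold, 1.58 to 3.06). Cdk5, a kinase that works in neurons without a D cyclin, stood at 48.6 CPM in NPCs against 65.8 in neurons, a fold of 1.35 (1.26 to 1.46). Microglia and Cajal-Retzius markers were higher in the same library, and their part was not tested.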
